A study of Mus musculus with 6 samples.

Results

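Genes that set the pace of the G1 phase were followed in antiviral CD4+ T cells: the D cyclins Ccnd2 and Ccnd3, the kinases Cdk4 and Cdk6, and the inhibitors Cdkn1a, Cdkn1b, Cdkn2c and Cdkn2d. They were chosen by name from a table of 15445 genes, and all 8 had enough counts to be tested among 12987 genes. CD25-high and CD25-low cells, with 3 libraries each, were transgenic T cells of one receptor specificity from spleens of C57BL/6 mice, taken on day 5 of infection with lymphocytic choriomeningitis virus (LCMV). Cells of both groups had been sorted by surface CD4, by Thy1.1, a congenic marker, and by CD25, a chain of the receptor for interleukin-2. The sources used here give neither the age of the mice nor the number of animals behind each library, so p-values measure spread that may in part be technical. Values of single libraries are listed in the order of the library numbers, 1 to 3.

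In G1, a D cyclin joins CDK4 or CDK6, and the complex phosphorylates the retinoblastoma protein, which releases E2F factors and lets S phase genes be transcribed. INK4 inhibitors (p18 from Cdkn2c, p19 from Cdkn2d) bind CDK4 and CDK6 directly, whereas the CIP/KIP inhibitors p21 (Cdkn1a) and p27 (Cdkn1b) bind cyclin and kinase together and block CDK2 most strongly. In lymphocytes, interleukin-2 and other growth cytokines are known to raise D cyclins and to lower p27 as cells leave rest.

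Total counts ranged from 16787233 to 23567066 per library, of which mitochondrial ribosomal RNA took 29.3% to 35.3%. Il2ra, which encodes CD25, averaged 878 ± 581 CPM (counts scaled by TMM-adjusted library size) in CD25-high cells, against 28.6 ± 7.52 CPM in CD25-low cells (mean ± SD, n = 3 each), as the sort labels say. Cd4 had 571, 563 and 579 CPM in the CD25-high libraries, against 474, 788 and 747 CPM in the CD25-low ones, so the defining marker of the labelled cell type was present in every library. The libraries numbered 1 stood apart in both groups: with the group as a term, 943 genes (7.26%) differed between number 1 and the others at an edgeR adjusted p below 0.05, 492 of them lower in number 1. For that reason the members and lists were also tested in a second fit, which has the library number as a blocking term. Summed markers of other cells were 26.8 to 87.7 CPM in CD25-high and 13.0 to 42.4 CPM in CD25-low libraries for 6 of 8 myeloid genes, and 3.22 to 10.4 CPM and 8.44 to 15.4 CPM for 2 of 6 B cell genes. The same sums were 6.54 to 18.2 CPM in CD25-high and 6.73 to 16.0 CPM in CD25-low libraries for 3 of 5 dendritic cell genes, 3.62 to 5.33 CPM and 1.81 to 4.34 CPM for 2 of 5 CD8 T and NK cell genes, and 2.27 to 2.99 CPM and 2.07 to 4.10 CPM for 2 of 8 erythroid and platelet genes. All 9 T cell markers were measured, at 2832 to 3062 CPM in CD25-high and 2893 to 3877 CPM in CD25-low libraries. With the block the myeloid marker Itgam rose (edgeR adjusted p 0.0013), and the CD3 chain genes Cd3d (0.0134) and Cd3g (0.0135) fell. Of the 9 T cell markers, 2 had positive estimates, Thy1 (log2 fold change 0.46) and Cd5 (0.18), and Cd3e had -0.14. Thy1, Cd5 and Cd3e passed in neither fit. Itgam alone had 21.1, 77.2 and 71.6 CPM in the CD25-high libraries, most of their myeloid sums, against 5.03, 26.3 and 32.1 CPM in the CD25-low ones. The other tested myeloid markers, Csf1r (log2 fold change 0.66) and Cd68 (-0.31), passed in neither fit. The part of these marker genes in the results below was not tested.

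Ccnd2 was the one gene of the 8 that rose in CD25-high cells in the fit without a block. With the replicate block Ccnd3 rose too, and Cdkn1b, the p27 gene, fell. The kinase genes Cdk4 and Cdk6, and the inhibitor genes Cdkn1a, Cdkn2c and Cdkn2d, did not pass in either fit. The call without a block, an edgeR quasi-likelihood adjusted p below 0.05 over all tested genes, held for 1 of 8 members and for 0.655% of all tested genes, 0.154% in the higher direction. With the block it held for 3 of 8 members, 2 higher and 1 lower, and for 4.63% of all tested genes, 1.73% higher and 2.9% lower. Members had a median log2 fold change of 0.19, against 0.01 for the whole tested set.

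**Figure D1:**
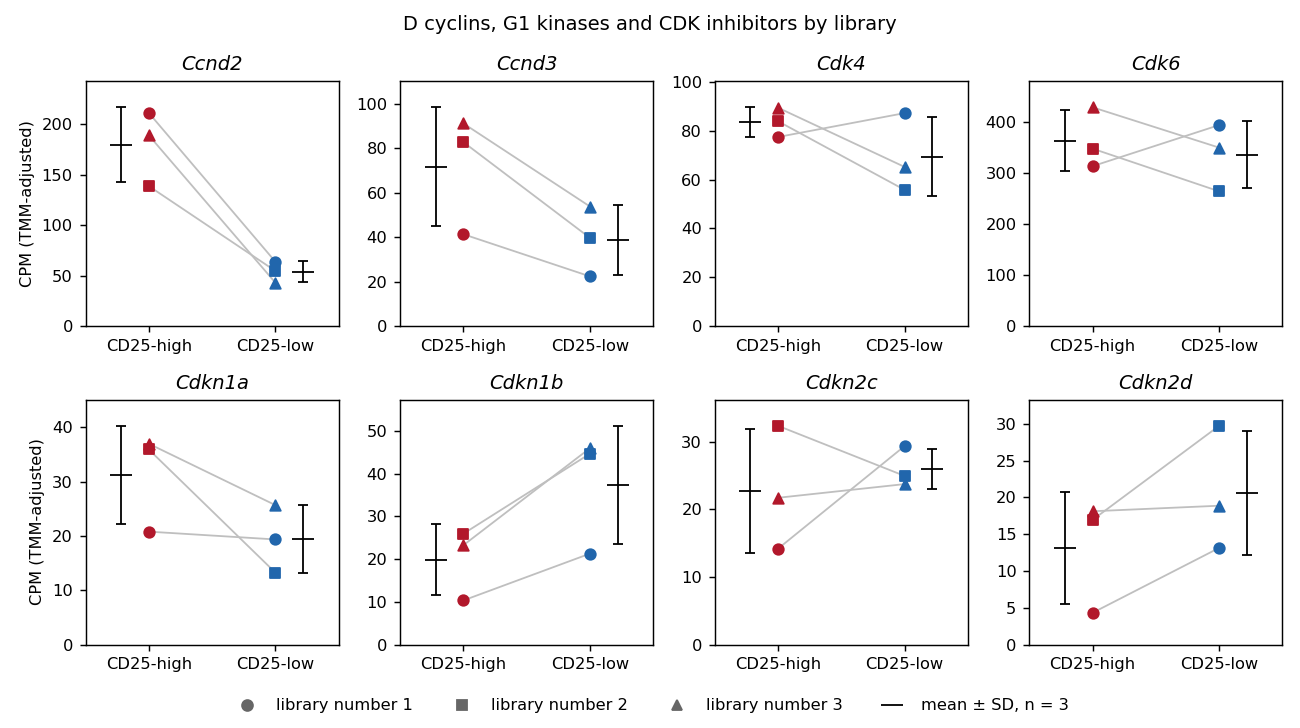
CPM of each of the 8 genes (vertical axis, from 0) in CD25-high (red, left) and CD25-low (blue, right) libraries. Grey lines join libraries with the same number, and black bars give mean ± SD (n = 3). Ccnd2 is the one gene whose groups do not overlap, while all 3 lines of Ccnd3 run down and all 3 of Cdkn1b run up towards CD25-low.

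For 7 of the 8 members, RefSeq promoter windows of GRCm38.p6 were at hand, from 250 bases before a start site to 50 after, with 10 windows in all. Ccnd2 was the member without one, so its promoter was not searched. Shown here are the 250 bases before the start for Cdk4, whose letters stand apart from other promoters, and for Ccnd3 and Cdkn1b, the pair that moved in opposite directions with the block. Capitals mark CACGTG, the E-box bound by MYC, in the Cdk4 window, and the reverse complement of GTAAACA, a FOXO motif, in the first Ccnd3 window.
Cdk4, chr10:127063285-127063534, plus strand: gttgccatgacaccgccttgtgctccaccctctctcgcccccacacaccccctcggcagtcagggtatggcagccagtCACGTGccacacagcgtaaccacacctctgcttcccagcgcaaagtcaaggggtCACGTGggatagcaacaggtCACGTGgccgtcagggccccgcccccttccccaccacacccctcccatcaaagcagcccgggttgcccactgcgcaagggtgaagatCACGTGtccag
Ccnd3, upstream start, chr17:47504801-47505050, plus strand: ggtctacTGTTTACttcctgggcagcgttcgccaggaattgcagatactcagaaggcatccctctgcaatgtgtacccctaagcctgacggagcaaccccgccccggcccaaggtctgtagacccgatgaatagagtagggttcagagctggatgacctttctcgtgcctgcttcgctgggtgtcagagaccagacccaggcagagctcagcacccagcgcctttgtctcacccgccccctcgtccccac
Ccnd3, downstream start, chr17:47593217-47593466, plus strand: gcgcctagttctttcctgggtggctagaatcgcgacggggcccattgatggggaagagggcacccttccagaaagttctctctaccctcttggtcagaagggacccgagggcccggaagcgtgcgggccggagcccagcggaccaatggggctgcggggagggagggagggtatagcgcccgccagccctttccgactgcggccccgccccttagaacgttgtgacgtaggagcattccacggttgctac
Cdkn1b, chr6:134920151-134920400, plus strand: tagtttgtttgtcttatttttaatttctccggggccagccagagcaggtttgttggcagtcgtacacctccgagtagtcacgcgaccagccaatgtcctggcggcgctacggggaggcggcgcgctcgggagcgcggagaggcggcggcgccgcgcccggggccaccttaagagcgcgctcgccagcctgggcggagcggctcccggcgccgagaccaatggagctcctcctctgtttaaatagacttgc

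Letters were searched on both strands of the whole windows. The Cdk4 window held 4 copies of CACGTG, and 0.0244% of 32851 windows of the same length held at least 4, while 7.15% held at least 1. Cdk6 and Cdkn2c had 1 copy each. GTAAACA was found in the upstream Ccnd3 window, against 3.65% of all windows. TTCNNNGAA, the core of STAT motifs, stands in 8.3% of all windows and in no window of the 7 genes searched, and the E2F letters TTTCCCGC, TTTCGCGC, TTTGCCGC and TTTGGCGC, in 2.26% of all windows, were not in them either. GGGCGG, the GC box, was in windows of Ccnd3, Cdk4, Cdkn1a, Cdkn1b, Cdkn2c and Cdkn2d, and in 35.7% of all windows. These matches describe letters in short windows and do not show binding.

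Ccnd2 encodes cyclin D2, a D cyclin that lymphocytes induce on activation. It lies on chromosome 6 (minus strand, 127125162 to 127152193, mm10). Its level was 211, 139 and 189 CPM in the CD25-high libraries, against 63.8, 54.6 and 42.9 CPM in the CD25-low ones. Every CD25-high library lay above every CD25-low library. The log2 fold change was 1.74 ± 0.24 (SE), a 3.35-fold difference with a 95% interval of 1.22 to 2.27 on the log2 scale (edgeR adjusted p 0.0104), and it ranked 24 by p among all tested genes. Ccnd2 alone among the 8 had groups without overlap, as did 16.9% of all tested genes. In bulk RNA, a larger share of cells with the transcript and more of it per cell cannot be told apart.

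Between same-numbered libraries the log2 difference of Ccnd2 was 1.72, 1.34 and 2.13 for numbers 1, 2 and 3. With the block the adjusted p was 0.00012. Without the block, the call was lost when CD25-high library 3 (adjusted p 0.0797), CD25-low library 2 (0.0917) or CD25-low library 3 (0.0676) was left out, at log2 fold changes that stayed between 1.60 and 1.90 over all 6 such fits. With the block and without pair 1, 2 or 3 the log2 fold change was 1.74, 1.93 and 1.54 (edgeR adjusted p 0.00413, 1.1e-11 and 1.58e-05). Block fits that leave out a pair, here and below, have few libraries beyond their terms. Their p-values rest largely on variance shared across genes, so a smaller one does not make the call firmer. Ccnd2 shares 368 exonic bases with the antisense gene 9330179D12Rik, whose count was 0% to 5.78% of that of Ccnd2, and 372 with Gm43126, which was not analysed here. The strand setting of the counting is not given, so reads of antisense partners cannot be told apart.

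Ccnd3 encodes cyclin D3, a D cyclin needed in developing thymocytes and widely present in T cells. It lies on chromosome 17 (plus strand, 47505051 to 47599691). The level was 41.3, 82.7 and 91.1 CPM in the CD25-high libraries, against 22.3, 39.6 and 53.7 CPM in the CD25-low ones. The groups overlapped through CD25-high library 1, and number 1 was the lowest library of both groups. The log2 fold change was 0.89 ± 0.37 (SE, 95% interval 0.08 to 1.70, edgeR adjusted p 0.401). Within pairs the log2 difference was 0.87, 1.05 and 0.76, and with the block the adjusted p was 0.013, a call lost without pair 2 (0.119).

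Library number moved with Ccnd3: with the group as a term, number 1 lay 1.06 log2 units below the others (-1.06, edgeR adjusted p 0.008). Ccnd3 shares 361 exonic bases with Bysl, a ribosome biogenesis gene on the opposite strand whose count was 63.4% to 168% of that of Ccnd3. Bysl had a log2 fold change of 0.72 (edgeR adjusted p 0.354, with the block 0.142), so the Ccnd3 count is uncertain to the extent of the shared bases.

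Ccnd1, the D cyclin of most other tissues, averaged 2.20 ± 0.95 CPM in CD25-high cells, against 1.75 ± 0.997 CPM in CD25-low cells (mean ± SD, n = 3 each), with a log2 fold change of 0.32 ± 0.69 and an edgeR adjusted p of 0.91 (with the block 0.838). It shares 1100 exonic bases with LTO1 on the opposite strand, so its low count is uncertain to the extent of the shared bases. Cdkn3, a phosphatase gene that acts on CDKs, had 8.16, 15.8 and 13.2 CPM in the CD25-high libraries, against 11.6, 15.5 and 7.69 CPM in the CD25-low ones (log2 fold change 0.10 ± 0.37, edgeR adjusted p 0.954, with the block 0.917). Per kilobase of annotated exon, Ccnd2 and Ccnd3 together reached 27.2, 24.2 and 30.5 in the CD25-high libraries, against 9.32, 10.3 and 10.7 in the CD25-low ones, in units of CPM per kilobase. The summed D cyclin level did not overlap between the groups; the sum was formed after the values were seen and has no test. Ccnd2 made up 82.7%, 61.0% and 66.0% of that sum in CD25-high libraries 1, 2 and 3, and 72.7%, 56.3% and 42.7% in CD25-low libraries 1, 2 and 3. Those shares did overlap, and number 1 had the highest share of both groups.

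**Figure D2:**
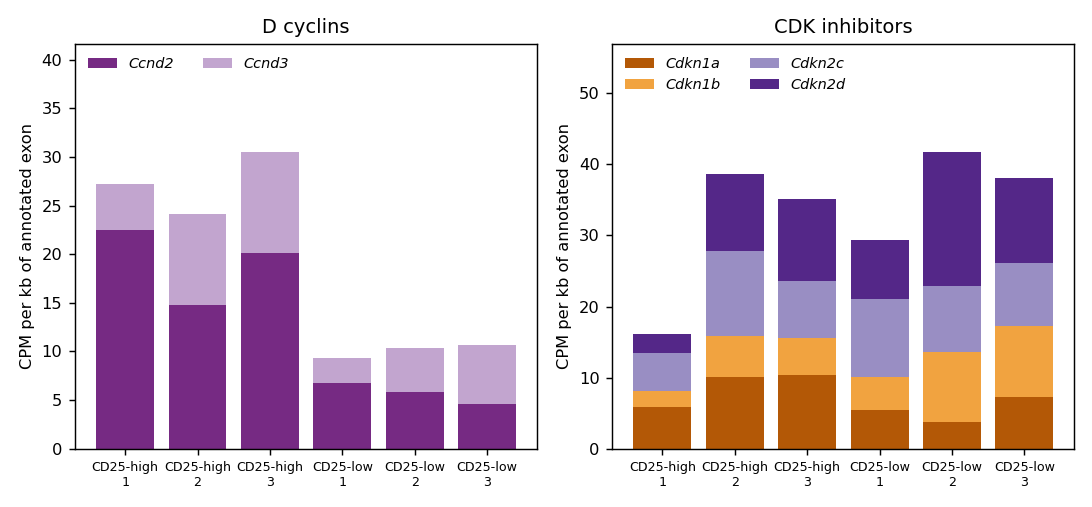
Stacked levels in CPM per kilobase of annotated exon (vertical axis, from 0) in each library, CD25-high on the left and CD25-low on the right of each panel. The D cyclin stacks reach 24.2 to 30.5 in CD25-high and 9.32 to 10.7 in CD25-low libraries, while the inhibitor stacks overlap and CD25-high library 1 has the lowest, at 16.1.

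Cdk4 and Cdk6 encode the catalytic partners of the D cyclins. Cdk4 lies on chromosome 10 (plus strand, 127063534 to 127067920), and Cdk6 on chromosome 5 (plus strand, 3341485 to 3531008). Cdk4 had 77.5, 84.0 and 89.5 CPM in the CD25-high libraries, against 87.3, 55.8 and 65.2 CPM in the CD25-low ones. CD25-low library 1 lay among the CD25-high libraries and the other CD25-low libraries below them. The log2 fold change of Cdk4 was 0.27 ± 0.22 (95% interval -0.22 to 0.76, edgeR adjusted p 0.717), but 0.47 without CD25-low library 1 and 0.13 without CD25-low library 2.

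Cdk6 had 313, 347 and 428 CPM in the CD25-high libraries, against 394, 264 and 349 CPM in the CD25-low ones. The groups overlapped broadly. Its log2 fold change was 0.11 ± 0.21 (95% interval -0.36 to 0.59, edgeR adjusted p 0.895), the smallest of the 8 in size. Both kinases were lower in CD25-high than in CD25-low cells within pair 1 (-0.17 for Cdk4 and -0.33 for Cdk6 on the log2 scale) and higher within pairs 2 (0.58 and 0.40) and 3 (0.45 and 0.29). With the block the adjusted p was 0.475 for Cdk4 and 0.772 for Cdk6, and the 95% intervals reached 0.71 and 0.48 at most. Differences inside these intervals could not be resolved with 3 libraries a group.

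Cdk4 shares 641 exonic bases with Tspan31 on the opposite strand, whose count was 35.0% to 48.3% of that of Cdk4, and Cdk6 shares 368 with the antisense gene Gm17590, not analysed here. Myc, whose E-box letters stand 4 times in the Cdk4 window shown above, had 284, 49.7 and 75.7 CPM in the CD25-high libraries, against 90.6, 33.3 and 56.2 CPM in the CD25-low ones. CD25-high library 1 was far above the rest, and the groups overlapped. The log2 fold change of Myc was 1.19 ± 0.58 (edgeR adjusted p 0.496, with the block 0.0401), and the block call was lost without pair 1 (0.186). Without CD25-high library 1 the log2 fold change of Myc was 0.064 (edgeR adjusted p 0.98).

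**Figure D3:**
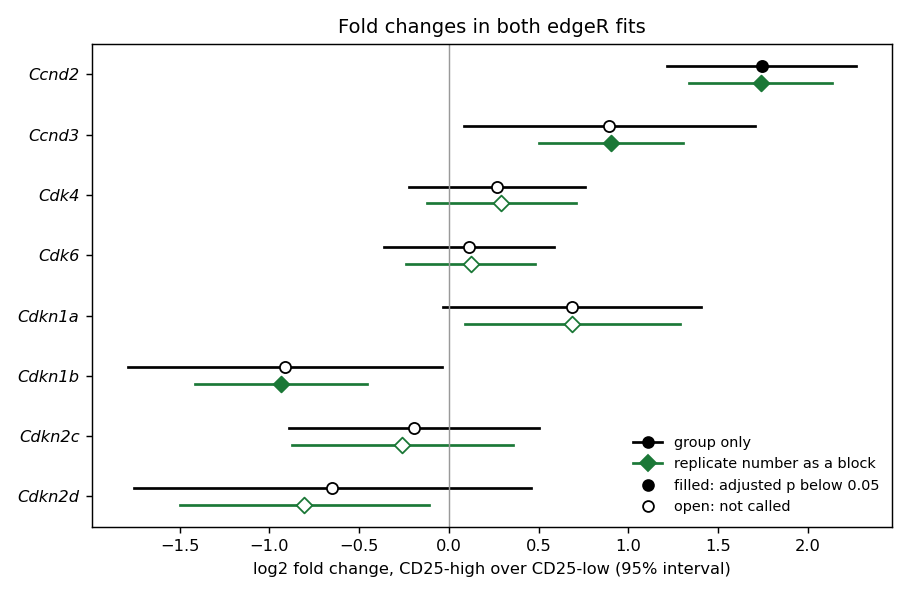
Log2 fold change of each gene, CD25-high over CD25-low, with 95% intervals (horizontal axis), in the fit without a block (black circles) and with the replicate number as a block (green diamonds). Filled symbols have an adjusted p below 0.05. Ccnd2 is filled in both fits, Ccnd3 at 0.90 and Cdkn1b at -0.94 with the block alone, and the block narrows the intervals without moving the estimates far.

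Cdkn1b encodes p27, an inhibitor that is high in resting T cells. It lies on chromosome 6 (plus strand, 134920401 to 134925513) and shares no exonic bases with an annotated neighbour. The level was 10.3, 25.9 and 23.2 CPM in the CD25-high libraries, against 21.3, 44.7 and 46.0 CPM in the CD25-low ones. Number 1 was the lowest library of both groups, and CD25-low library 1 lay below CD25-high libraries 2 and 3. Its log2 fold change was -0.91 ± 0.39 (95% interval -1.79 to -0.04, edgeR adjusted p 0.431), and -0.60 without CD25-high library 1. Within pairs the log2 difference was -1.01, -0.77 and -0.97, close to one another, and with the block the adjusted p was 0.0292. That call was lost without pair 1 (0.0592), pair 2 (0.122) or pair 3 (0.129). With the group as a term, Cdkn1b was 1.17 log2 units lower in number 1 (-1.17, edgeR adjusted p 0.0133).

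Cdkn1a encodes p21, the CIP/KIP inhibitor induced by p53 and also by mitogens. It lies on chromosome 17 (plus strand, 29090976 to 29100727). The level was 20.8, 35.9 and 37.0 CPM in the CD25-high libraries, against 19.4, 13.2 and 25.7 CPM in the CD25-low ones. All CD25-high libraries exceeded their same-numbered CD25-low library, number 1 by little, and the groups overlapped. The estimated log2 difference was 0.69 ± 0.32 (95% interval -0.03 to 1.4, edgeR adjusted p 0.476, with the block 0.203). Cdkn1a shares 273 exonic bases with an opposite-strand gene not analysed here.

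The estimates of the CIP/KIP genes had opposite signs, positive for Cdkn1a and negative for Cdkn1b. Per kilobase, Cdkn1a made up 72.1%, 64.0% and 67.1% of the Cdkn1a and Cdkn1b sum in CD25-high libraries 1, 2 and 3, and 53.8%, 27.5% and 41.7% in CD25-low libraries 1, 2 and 3. The shares did not overlap between the groups. This ratio was formed after the values were seen, and it has no test.

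Cdkn2c encodes p18, an INK4 inhibitor that limits lymphocyte division. It lies on chromosome 4 (minus strand, 109660876 to 109667189). The level was 14.2, 32.4 and 21.7 CPM in the CD25-high libraries, against 29.4, 25.0 and 23.7 CPM in the CD25-low ones. CD25-high libraries held both the lowest and the highest value. This gave a log2 fold change of -0.19 ± 0.31 (95% interval -0.89 to 0.50, edgeR adjusted p 0.874, with the block 0.704). Without CD25-high library 1 its sign turned, to 0.057.

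Cdkn2d encodes p19, the other INK4 inhibitor measured. It lies on chromosome 9 (minus strand, 21288410 to 21291407). The level was 4.31, 16.9 and 18.1 CPM in the CD25-high libraries, against 13.1, 29.7 and 18.9 CPM in the CD25-low ones. All CD25-high libraries lay below their same-numbered CD25-low library, number 3 by little. Across groups the log2 fold change was -0.65 ± 0.50 (95% interval -1.75 to 0.46, edgeR adjusted p 0.69, with the block 0.199). It was -0.23 without CD25-high library 1 and -0.29 without CD25-low library 2. Number 1 was lower here as well, by -1.39 log2 units (edgeR adjusted p 0.0356). Cdkn2a, Cdkn2b and Cdkn1c, which encode further CDK inhibitors, had no row in the deposited table of counts, so they were not analysed.

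Levels of different genes were compared per kilobase of annotated exon, which takes every annotated exon of a gene as transcribed. In CD25-high cells the order of mean levels was Cdk6 (25.9 ± 4.23), Cdk4 (25.7 ± 1.85), Ccnd2 (19.1 ± 3.95), Cdkn1a (8.79 ± 2.55), Cdkn2c (8.47 ± 3.40), Cdkn2d (8.33 ± 4.86), Ccnd3 (8.17 ± 3.04) and Cdkn1b (4.36 ± 1.83), in CPM per kilobase (SD, n = 3). Cdk6 and Cdk4 lay closer than the larger of their SDs, as did each neighbouring pair from Cdkn1a to Ccnd3. In CD25-low cells the order was Cdk6 (24.0 ± 4.72), Cdk4 (21.4 ± 4.97), Cdkn2d (13.1 ± 5.35), Cdkn2c (9.69 ± 1.10), Cdkn1b (8.19 ± 3.05), Ccnd2 (5.72 ± 1.11), Cdkn1a (5.47 ± 1.75) and Ccnd3 (4.39 ± 1.79). There the step from Cdk4 to Cdkn2d was the single step larger than the SDs of its neighbours. By mean level Ccnd2 stood directly below the kinases in CD25-high cells. In CD25-low cells its mean lay below those of 3 of the 4 inhibitors, but the steps between these neighbours were within the SDs.

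**Figure D4:**
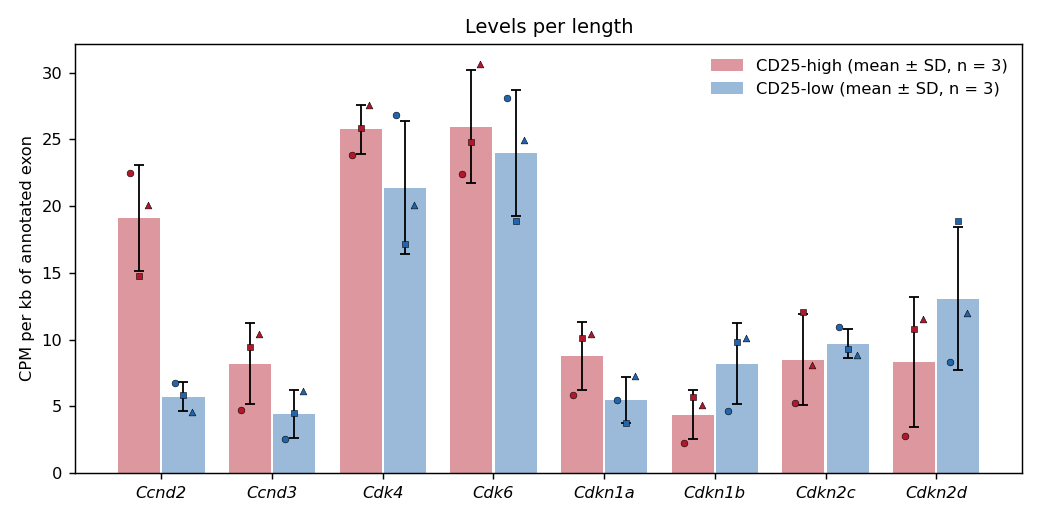
Mean level of each gene in CPM per kilobase of annotated exon (vertical axis, from 0) in CD25-high (red, left bar) and CD25-low (blue, right bar) cells, with SD (n = 3) and the single libraries as points. Cdk4 and Cdk6 are the highest of the 8 in both groups, and Ccnd2 stands at 19.1 in CD25-high and 5.72 in CD25-low cells.

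Relative to the kinases, the D cyclin sum over the Cdk4 and Cdk6 sum was 0.588, 0.477 and 0.524 in the CD25-high libraries, against 0.169, 0.286 and 0.237 in the CD25-low ones. Relative to the sum of the 4 inhibitors it was 1.68, 0.626 and 0.869 in CD25-high libraries, and 0.317, 0.247 and 0.28 in CD25-low libraries. Neither ratio overlapped between groups. These are ratios of RNA per length, formed with the Ccnd2 result known, and they carry no test.

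The genes most like a called member were sought among 8304 protein-coding genes with a mean of at least 5 CPM, by the root mean square (RMS) difference of centred log2 CPM over the 6 libraries. Closest to Ccnd2 was Hk2, the glycolytic hexokinase 2, at an RMS difference of 0.25. Hk2 had 135, 79.1 and 108 CPM in the CD25-high libraries, against 55.2, 28.6 and 32.4 CPM in the CD25-low ones (log2 fold change 1.47, edgeR adjusted p 0.0684, block adjusted p 0.00032). Because Hk2 was picked for its likeness to Ccnd2 over these same libraries, its difference between groups follows from the choice. These p-values are therefore no separate evidence. Atrnl1 (0.31) and Cd24a (0.32) followed. Ccnd3 was closest to Inf2 (0.12), Fam89b (0.14) and Itpripl2 (0.14). Klhdc1 (0.10) and Lpin1 (0.12) were among the genes closest to Cdkn1b.

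Downstream of the D cyclins, none of the genes for E and A cyclins, CDK2, CDC25A and the CDK-activating kinase passed in either edgeR fit. Of 9 tested, 1 had an unadjusted p below 0.05, a share near the 11.1% of all tested genes that did. DESeq2 and limma voom called 0 of the 9, and 2.7% and 0.724% of all genes they tested. The smallest p-values were those of Cdc25a, the phosphatase that activates CDK2 (log2 fold change 0.62 ± 0.28, edgeR adjusted p 0.45, with the block 0.0924), and of Ccna2, the S phase cyclin A2 (0.38 ± 0.19, edgeR adjusted p 0.513, with the block 0.152). Cdk2 itself had 43.9 ± 4.96 CPM in CD25-high cells, against 34.4 ± 2.48 CPM in CD25-low cells (mean ± SD, n = 3 each, edgeR adjusted p 0.591, with the block 0.391). The 9 had a median of 0.25 on the log2 scale, against 0.01 for all genes tested.

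Of 13 tested genes for pocket proteins, E2F and DP factors, 0 passed in either edgeR fit, 2 had an unadjusted p below 0.05 (11.1% of all tested genes did), and DESeq2 and limma voom called 0. E2f8, a repressor E2F that is itself induced in S phase, had a log2 fold change of 0.59 ± 0.21 (edgeR adjusted p 0.318, with the block 0.0753), and Tfdp1, a partner of E2F factors, 0.56 ± 0.21 (edgeR adjusted p 0.364, with the block 0.105). Tfdp2, another DP gene, had the opposite sign (-0.91 ± 0.43, edgeR adjusted p 0.469, with the block 0.116). Of the 13 estimates, 8 were positive. The list's median was 0.13. Rb1, the retinoblastoma gene, had 146 ± 26.4 CPM in CD25-high cells, against 134 ± 25.0 CPM in CD25-low cells (mean ± SD, n = 3 each).

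Among 14 tested genes for the turnover of D cyclins and CDK inhibitors, 0 passed in either edgeR fit, 2 had an unadjusted p below 0.05, beside 11.1% of all tested genes, and DESeq2 and limma voom called 0. Skp2, the ligase subunit that marks p27 for degradation, averaged 59.0 ± 5.10 CPM in CD25-high cells, against 39.3 ± 7.51 CPM in CD25-low cells (mean ± SD, n = 3 each). Its log2 fold change was 0.59 ± 0.22 (edgeR adjusted p 0.356, with the block 0.0976). Dtl, which targets p21 and the licensing factor CDT1 in S phase, had 0.51 ± 0.22 (edgeR adjusted p 0.433, with the block 0.0855). The list's median was 0.04.

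E2F-driven S phase genes numbered 18, and 0 passed without the block, 4 had an unadjusted p below 0.05, beside 11.1% of all tested genes, and DESeq2 and limma voom called 0. With the block, which called 4.63% of all tested genes, 1 rose. This was the replicative helicase gene Mcm2 (0.61 on the log2 scale, edgeR adjusted p 0.0486), a call lost without pair 1 (0.149) or pair 2 (0.245). All 18 estimates were positive, with a median of 0.30, whereas 6595 of 12987 tested genes had positive estimates. Within pair 1, however, most of the log2 differences of these genes were negative, and they ranged from -0.68 (Cdt1) to 0.80 (Mcm2). Of 14 mitotic genes 0 passed in either edgeR fit, 3 had an unadjusted p below 0.05 (11.1% of all tested genes), DESeq2 and limma voom called 0, and the median was 0.18. Ccnb1, the mitotic cyclin B1 (0.58 ± 0.22, edgeR adjusted p 0.353, with the block 0.105), and the kinase gene Aurka (0.58 ± 0.23, edgeR adjusted p 0.374, with the block 0.14) had the smallest p-values there.

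**Figure D5:**
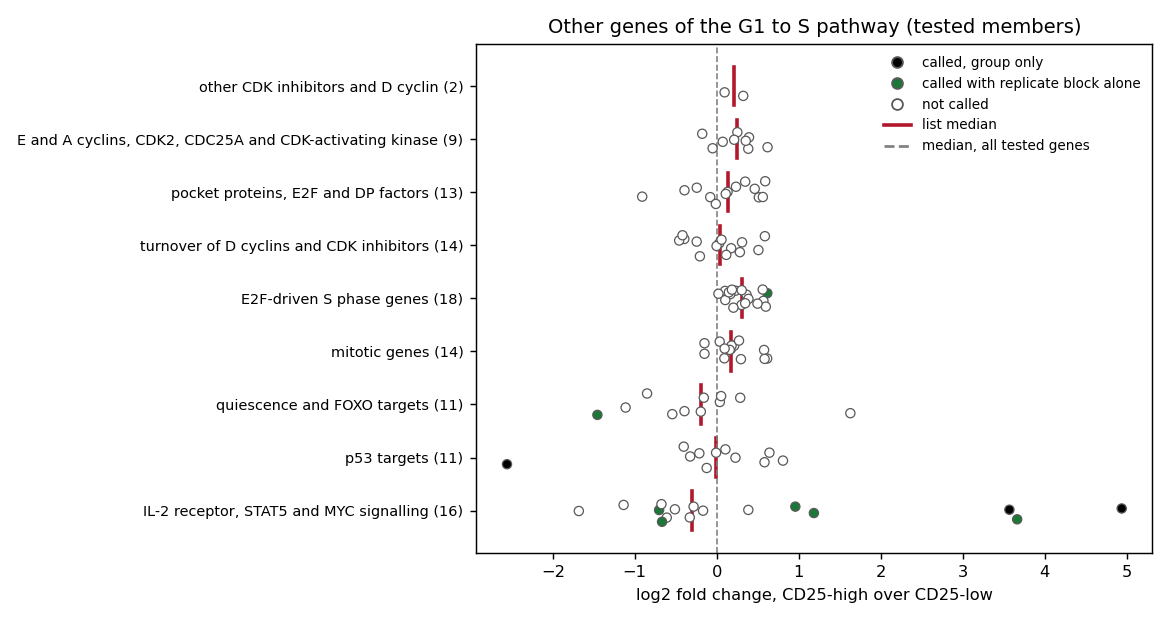
Log2 fold change, CD25-high over CD25-low, of every tested gene (points) in 9 lists around the G1 to S step, with the number tested in brackets. Red bars mark list medians and the dashed line the median of all tested genes, 0.01. The E2F-driven S phase genes all lie to the right of 0. Black points, called without the block, stand in the p53 and interleukin-2 lists. Green points were called with the block alone, among them Mcm2 in the S phase list and Btg1 in the quiescence list.

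Of 11 tested quiescence and FOXO target genes, 0 passed without the block and 3 had an unadjusted p below 0.05, beside 11.1% of all tested genes. DESeq2 called 1 and limma voom 0. With the block 1 fell, Btg1, an antiproliferative gene of resting lymphocytes, which averaged 17.9 ± 4.82 CPM in CD25-high cells, against 49.1 ± 13.1 CPM in CD25-low cells (mean ± SD, n = 3 each, log2 fold change -1.46 ± 0.29, edgeR adjusted p 0.0619, with the block 0.00327). The median of the list was -0.19, and 4 of its 11 estimates were positive. Among these was Il7r, the interleukin-7 receptor gene (log2 fold change 1.63 ± 0.60, edgeR adjusted p 0.343, with the block 0.142). Il7r was among the 3 with an unadjusted p below 0.05. Of 11 tested p53 targets 1 fell and 0 rose in both fits: Trp53inp1, with 8.65 ± 3.61 CPM in CD25-high cells, against 51.0 ± 14.1 CPM in CD25-low cells (log2 fold change -2.56 ± 0.37, edgeR adjusted p 0.0141, with the block 0.000302). Without the block that call was lost when CD25-high library 2 (0.0547), CD25-high library 3 (0.054), CD25-low library 2 (0.103) or CD25-low library 3 (0.0647) was left out. The median of that list, which does not hold Cdkn1a, was -0.01. Over all tested genes 0.655% were called without the block and 4.63% with it.

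Among 16 tested genes of interleukin-2 receptor, STAT5 and MYC signalling, 2 rose without the block, beside 0.655% of all tested genes called. These were Il2ra, the marker used for the sort, and Socs2, a feedback inhibitor of cytokine receptors. With the block 5 rose and 2 fell, beside 4.63% of all tested genes called. An unadjusted p below 0.05 was found for 10, beside 11.1% of all tested genes. DESeq2 called 4 and limma voom 2, beside 2.7% and 0.724% of all genes they tested. The Socs2 call without the block was lost when CD25-high library 2 (0.0599), CD25-high library 3 (0.103) or CD25-low library 2 (0.121) was left out. Cish, another feedback inhibitor and a classical STAT5 target, had 8.43 ± 6.45 CPM in CD25-high cells, against 0.655 ± 0.628 CPM in CD25-low cells (mean ± SD, n = 3 each, edgeR adjusted p 0.0939, with the block 0.00621). The kinase gene Jak1 (-0.70 ± 0.21, edgeR adjusted p 0.217, with the block 0.0225) and the MYC partner gene Max (-0.67 ± 0.20, edgeR adjusted p 0.238, with the block 0.0322) were the 2 that fell. Block calls were lost without pair 1 for Cish (0.0958), without pair 3 for Jak1 (0.158), and without pair 1 (0.105) or pair 2 (0.19) for Max. The list's median log2 fold change was -0.31, although its larger calls were positive.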

How the data were processed

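The deposited table holds raw counts, whole numbers of reads per Ensembl gene and library. A NuGEN Ovation RNA-Seq kit amplified the RNA, per the labels' protocols, and the submitters' processing notes name Novoalign, DESeq2, mm10 and hg19 without version or role. The sources used here give no counting tool, annotation or strand setting. GENCODE M21 (GRCm38, as mm10) named 15169 of 15445 genes.

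Counts were tested with edgeR 4.0.16 (R 4.3.3), by quasi-likelihood F test with TMM factors after filterByExpr (minimum count 10, minimum total 15), group as the only term, and Benjamini-Hochberg adjustment over 12987 genes. SE was taken as the size of the log2 fold change divided by the root of F, and 95% intervals use its t quantiles. Pair differences and RMS differences used log2(CPM + 0.5).

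Deviations from group means over the 2000 most variable genes correlated at 0.34, 0.19 and 0.16 for numbers 1, 2 and 3, and at -0.26 to 0.13 otherwise. All 3 exceed the limit of 0.1, so the numbers were taken to pair libraries, which no label states. CD25-high library 2 with CD25-low library 3 exceeded that limit as well, at 0.13, close to the 0.16 of number 3. The correlations therefore set number 1 apart but do not settle how numbers 2 and 3 pair, and the Ccnd3 and Cdkn1b calls depend on this block. Libraries of one group differed by more than sampling noise in every pair, with a chi-square of 27.8 to 98.4 per degree of freedom.

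All 8 members were named. From other lists up to 3 called genes per direction were named, or the 2 with the smallest p. Rb1, Cdk2, Myc, Il7r, Tfdp2, the neighbours Bysl and Tspan31, and the promoters shown were chosen after their values or letters were seen. So were the markers Itgam, Csf1r, Cd68, Cd3d, Cd3g, Cd3e, Thy1 and Cd5. Members and lists were chosen with earlier results of these data known. The fit was tested on simulated data. Alternatives were upper-quartile or RLE factors, scaling to library size, leaving out the filter, requiring a mean count of 10 and 1 CPM in 3 libraries, DESeq2 1.42.0, limma voom 3.58.1, dropping mitochondrial genes and the 50 highest genes, the replicate block, and each library or pair left out.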

Additional observations from a re-analysis of the deposited data

How the results depend on the processing

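Ccnd2 was the only member called with upper-quartile or RLE factors, with scaling to library size, without a filter, with the stricter filter, with DESeq2, with limma voom and without abundant genes. With the replicate block 3 members were called (Ccnd2, Ccnd3 and Cdkn1b), 1 to 2 with the block and a pair left out, and 0 to 1 without the block and a library left out. Over all tested genes 85 were called, against 601 with the block and 376 with DESeq2. Leaving out 1 library gave 22 to 130 genes, and leaving out 1 pair, with the block, 461, 486 and 536 for pairs 1, 2 and 3. Other members were called in none of these fits. Signs turned for Cdk6 (-0.035 to 0.243 over the fits without 1 library, and -0.027 with the block and without pair 2) and for Cdkn2c (-0.534 to 0.057, and 0.123 with the block and without pair 1). The cause was not tested. With 3 libraries a group, Ccnd3 and Cdkn1b passed only with the block.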
